A study of Homo sapiens with 6 samples.

Results

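The nuclear side of Wnt signalling was followed through 10 genes: the DNA-binding factors LEF1, TCF7L1 and TCF7L2, the adaptors BCL9 and BCL9L, the Pygopus genes PYGO1 and PYGO2, and the Groucho co-repressors TLE1, TLE2 and TLE3. They were chosen by function, with earlier results of these data known. Each was read from the transcript cluster (the array's unit for a gene) paired with that gene symbol alone. All 10 had exactly 1 such cluster, out of 19460 clusters with 1 symbol that stood for 18417 genes. The cells were AGS, a human gastric adenocarcinoma line known for a stabilising mutation in beta-catenin, harvested 48 hours after transfection with CTNNB1 siRNA (3 arrays) or with a non-targeting control siRNA (3 arrays). The labels give no other difference between the groups, and both came from a single established line. The siRNA sequences are not known here, so an effect of the reagent on other transcripts cannot be told apart from the loss of CTNNB1. RNA was measured on the Affymetrix Human Gene 1.0 ST array, and all levels below are log2 expression values from the authors' RMA processing.

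Beta-catenin has no DNA-binding domain of its own and reaches Wnt target genes through the TCF/LEF proteins, which bind a short sequence with the core CTTTG. Without beta-catenin these proteins hold Groucho/TLE co-repressors on the same sites. With it, BCL9 or BCL9L bridges beta-catenin to a Pygopus protein, whose PHD finger reads methylated histone H3, and co-activators are recruited. TCF7L2 is the TCF/LEF protein best known in gut epithelium, and LEF1 is itself a known Wnt target gene in several tissues.

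The DNA element that these factors read is shown first, in stretches of promoter from RefSeq (GRCh38.p14, 250 bases up to the annotated start site). The search covered 4 forms of the element on both strands, namely the form CTTTGAA, the form CTTTGAT, the form CTTTGTA and the form CTTTGTT. The windows of SP5, a zinc-finger gene known as a Wnt target, and of TCF7L2 are printed 5′ to 3′ on the plus strand with matches in capitals. SP5 lies at chr2:170715087-170715336, the TCF7L2 upstream start at chr10:112949997-112950246 and an internal TCF7L2 start at chr10:113126383-113126632.
SP5: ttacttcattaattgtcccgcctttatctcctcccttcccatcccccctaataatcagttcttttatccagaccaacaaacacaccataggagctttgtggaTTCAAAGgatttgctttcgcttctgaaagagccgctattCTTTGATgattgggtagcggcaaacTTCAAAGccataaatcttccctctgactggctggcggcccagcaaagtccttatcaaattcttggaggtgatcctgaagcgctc
TCF7L2 upstream start: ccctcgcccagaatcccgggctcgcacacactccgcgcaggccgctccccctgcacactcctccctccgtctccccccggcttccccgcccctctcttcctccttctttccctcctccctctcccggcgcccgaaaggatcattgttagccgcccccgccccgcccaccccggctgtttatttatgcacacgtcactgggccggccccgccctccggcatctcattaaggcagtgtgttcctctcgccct
TCF7L2 internal start: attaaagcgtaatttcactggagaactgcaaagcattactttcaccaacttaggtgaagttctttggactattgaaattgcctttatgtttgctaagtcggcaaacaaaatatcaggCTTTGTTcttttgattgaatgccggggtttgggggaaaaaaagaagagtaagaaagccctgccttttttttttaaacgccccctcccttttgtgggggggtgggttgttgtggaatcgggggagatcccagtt
SP5 held 3 matches, which begin 148, 109 and 84 bases before the start site. The upstream TCF7L2 window held 0 and the internal window 1, which begins 133 bases before the start. RefSeq gives 3 TCF7L2 windows, and the third, also internal and not printed, held 0. RefSeq windows were found for 9 of the 10 genes, 15 windows in all, and the internal window printed above was the 1 window of the 15 with a match, against 12.0% of all 35116 windows. A match describes letters and does not show binding, and the TCF7L2 cluster gives 1 value for the gene, so its starts were not measured separately.

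The silenced gene was lower on every CTNNB1 siRNA array. CTNNB1 (cluster 8079021) was 10.27, 10.78 and 10.58 on CTNNB1 siRNA replicates 1 to 3, against 11.92, 11.76 and 11.75 on the controls, which leaves 41.5% of the control level (95% confidence interval 31.8% to 54.2%). In limma its adjusted p was 0.232 over all 19460 clusters, and the exact 2-sided permutation p was 0.1, the smallest that 3 arrays against 3 can give. JUP, encoding gamma-catenin, the paralogue that can also bind TCF/LEF proteins, differed by 0.15 (SE 0.17; 0.22 without CTNNB1 siRNA replicate 1). Over all clusters 1 passed the threshold of an adjusted p under 0.05, AKR1B10, an aldo-keto reductase gene, which was higher by 2.94.

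The first CTNNB1 siRNA replicate was the least like the rest. Across all clusters of the table, Pearson's r was 0.962 to 0.965 for the 5 pairs that include it and 0.983 to 0.988 for the other 10 pairs, so differences of the 10 genes are given with and without it. Of the epithelial genes, EPCAM, KRT8, KRT18 and KRT19 had mean levels above those of 99.2%, 99.8%, 98.7% and 97.8% of clusters. CLDN4 and CDH1 lay above 84.6% and 62.4%. The leukocyte genes PTPRC and CD3E lay above 4.65% and 16.2%. The gastric genes TFF1, TFF2, MUC6 and GKN1 lay above 67.8%, 40.8%, 36.2% and 3.51%. The stromal and endothelial genes COL1A1, COL3A1, PECAM1 and VWF lay above 60.8%, 37.1%, 17.7% and 23.2%. All 6 epithelial markers were higher in CTNNB1 siRNA cells, while 50.8% of all clusters were lower. CDH1 was higher by only 0.016 (SE 0.22), and differed by -0.044 without control replicate 1. Groups were apart for 2 of the 6 markers, beside 13.6% of all clusters, and none passed the threshold. The median difference of the 6 was 0.50, and 0.25 without CTNNB1 siRNA replicate 1. The medians of 4 stromal and endothelial, 4 gastric and 2 immune markers were 0.20, 0.070 and 0.042, and 0.12, 0.058 and 0.065 without replicate 1. TFF1, a secreted trefoil factor gene, was higher by 1.79 (SE 0.41, limma adjusted p = 0.816) with groups apart, and by 1.24 without replicate 1, where it passed (adjusted p = 0.0336). Their part in the results below was not tested.

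None of the 10 nuclear factor genes passed the threshold in limma (0 of 10, adjusted p = 0.816 to 0.981), and 0 of 10 had an unadjusted p under 0.05. Over all clusters 0.00514% passed the adjusted threshold and 5.64% the unadjusted one. The difference, CTNNB1 siRNA minus control siRNA, was below 0 for 9 of the 10 genes and above 0 for LEF1, while 50.8% of all clusters were below 0. The median of the 10 differences was -0.16, beside -0.0045 over all clusters. Without CTNNB1 siRNA replicate 1, 6 of the 10 were below 0 (50.4% of all clusters) and the median was -0.032, beside -0.0021 over all clusters. In that fit again 0 of 10 passed the adjusted threshold (0.0514% of all clusters) and 0 of 10 the unadjusted one (7.34% of all clusters). TLE1 was the 1 gene of the 10 whose groups did not overlap, and 13.6% of all clusters had groups that did not overlap. In these bulk samples, fewer cells expressing a gene and less RNA per cell cannot be told apart.

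**Figure D1:**
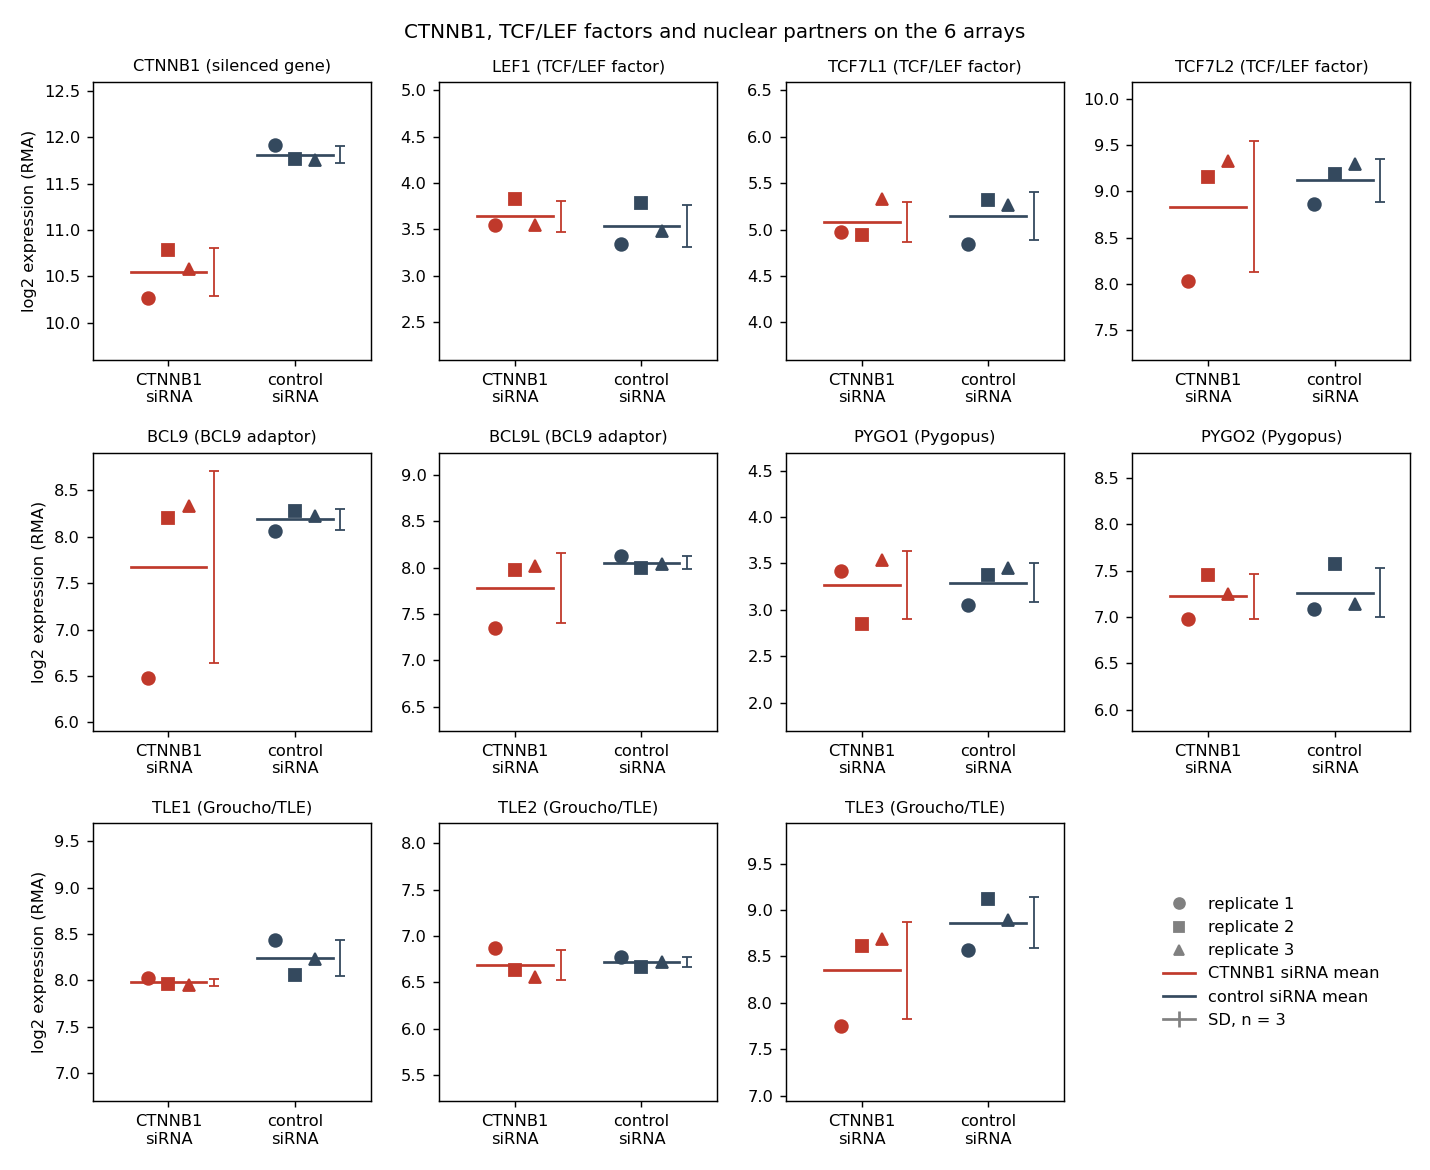
Log2 expression of CTNNB1 and the 10 nuclear factor genes on each array (points, shaped by replicate), with group means (lines) and SD (bars, n = 3); CTNNB1 siRNA is left of control siRNA, and every panel spans the same number of log2 units. CTNNB1 and TLE1 are the panels without overlap. In CTNNB1, TCF7L2, BCL9, BCL9L, PYGO2 and TLE3 the replicate 1 circle of CTNNB1 siRNA lies below all other points.

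Among the DNA-binding factors, TCF7L2 (cluster 7930537) was 8.03, 9.15 and 9.32 on CTNNB1 siRNA replicates 1 to 3 and 8.86, 9.19 and 9.30 on control replicates 1 to 3. Replicate 1 of the silenced group was the lowest of the 6 arrays, and replicates 2 and 3 lay within or just above the control range. The means were 8.83 ± 0.70 in CTNNB1 siRNA cells and 9.12 ± 0.23 in control cells (SD, n = 3 each), a log2 difference of -0.28 (SE 0.33, 95% confidence interval -1.04 to 0.47, limma adjusted p = 0.856). Without replicate 1 the difference was 0.12 (95% confidence interval -0.26 to 0.50), so its sign rested on that array. Mean TCF7L2 signal lay above that of 90.3% of tested clusters, well clear of the dim range in which RMA compresses differences.

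LEF1 (cluster 8102232) was 3.55, 3.83 and 3.54 on CTNNB1 siRNA arrays and 3.35, 3.78 and 3.49 on control arrays. The groups interleaved, with a difference of 0.10 (SE 0.17, 95% confidence interval -0.28 to 0.49, limma adjusted p = 0.899), and of 0.15 without CTNNB1 siRNA replicate 1. LEF1 signal lay above that of only 15.0% of clusters. A gene so dim has its differences compressed, so the value does not bound a change in its transcript.

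TCF7L1, a TCF protein that acts mainly as a repressor, was 4.97, 4.95 and 5.33 on CTNNB1 siRNA arrays and 4.85, 5.32 and 5.27 on control arrays (cluster 8043114). Its range within each group was wider than the gap between their means, with a difference of -0.064 (SE 0.18, limma adjusted p = 0.947; -0.0093 without replicate 1), and it lay above 36.2% of clusters, also among the dimmer 40%. TCF7, the remaining TCF/LEF gene, is not analysed here.

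Of the adaptors, BCL9 had the widest spread of the 10 genes within the CTNNB1 siRNA group. BCL9 (cluster 7904907) was 6.48, 8.20 and 8.33 on CTNNB1 siRNA replicates 1 to 3, against 8.06, 8.28 and 8.23 on control replicates. A single array, replicate 1, lay far below the rest, and replicate 3 was the highest of all 6. The difference of -0.52 (SE 0.44, 95% confidence interval -1.54 to 0.51, limma adjusted p = 0.826) became 0.078 (95% confidence interval -0.24 to 0.40) without replicate 1. Its SD was 1.04 in CTNNB1 siRNA cells and 0.11 in control cells (n = 3 each).

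BCL9L (cluster 7952116), the paralogue of BCL9, was 7.35, 7.98 and 8.02 on CTNNB1 siRNA arrays and 8.13, 8.00 and 8.04 on control arrays. Replicate 1 was again the lowest, and replicate 3 lay above the lowest control. The difference was -0.27 (SE 0.20, 95% confidence interval -0.73 to 0.19, limma adjusted p = 0.816), and -0.054 without replicate 1.

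For the Pygopus genes the groups overlapped throughout. PYGO2 (cluster 7920594), the broadly expressed member, was 6.98, 7.46 and 7.24 on CTNNB1 siRNA arrays and 7.08, 7.57 and 7.14 on control arrays. The difference of -0.038 (SE 0.19, 95% confidence interval -0.48 to 0.40, limma adjusted p = 0.969; 0.087 without CTNNB1 siRNA replicate 1) was small beside the SD of 0.24 in CTNNB1 siRNA cells and 0.26 in control cells (n = 3 each). PYGO1 (cluster 7989069) was 3.42, 2.85 and 3.54 on CTNNB1 siRNA arrays and 3.06, 3.38 and 3.45 on control arrays, above 11.3% of clusters. Its difference was -0.027 (SE 0.21) and -0.10 without that array, and at this signal neither presence nor change can be read.

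The Groucho/TLE co-repressors held the members with the smallest p values. TLE1 (cluster 8161919) was 8.02, 7.96 and 7.95 on CTNNB1 siRNA arrays, against 8.44, 8.06 and 8.23 on control arrays. All CTNNB1 siRNA arrays lay below all controls, and they lay close together, with an SD of 0.037 in CTNNB1 siRNA cells against 0.19 in control cells (n = 3 each). The difference of -0.26 (SE 0.15, 95% confidence interval -0.60 to 0.075) corresponds to 83.3% of the control level. It did not pass in limma (adjusted p = 0.816) and the exact permutation p was 0.1. Without CTNNB1 siRNA replicate 1 the TLE1 difference was -0.28 (SE 0.15), and without control replicate 1 it was -0.17. The margin between the groups was narrow, 8.02 on the highest CTNNB1 siRNA array against 8.06 on the lowest control.

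TLE3 (cluster 7990033) had the smallest p of the 10 (unadjusted 0.0954 and adjusted 0.816 in limma). It was 7.75, 8.61 and 8.69 on CTNNB1 siRNA arrays, against 8.57, 9.12 and 8.89 on control arrays. The groups overlapped because control replicate 1 lay below CTNNB1 siRNA replicates 2 and 3. The difference of -0.51 (SE 0.27, 95% confidence interval -1.14 to 0.11), or 70.1% of the control level, was -0.21 (SE 0.18) without CTNNB1 siRNA replicate 1.

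TLE2 (cluster 8032553) was 6.87, 6.63 and 6.56 on CTNNB1 siRNA arrays and 6.77, 6.67 and 6.72 on control arrays, a difference of -0.032 (SE 0.14, 95% confidence interval -0.36 to 0.29, limma adjusted p = 0.965). Here replicate 1 was the highest of the 6 arrays. Without it the difference was -0.12 (SE 0.13), and both remaining CTNNB1 siRNA arrays then lay below the controls, as 25.7% of all clusters had groups apart in one direction or the other among those 5 arrays.

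**Figure D2:**
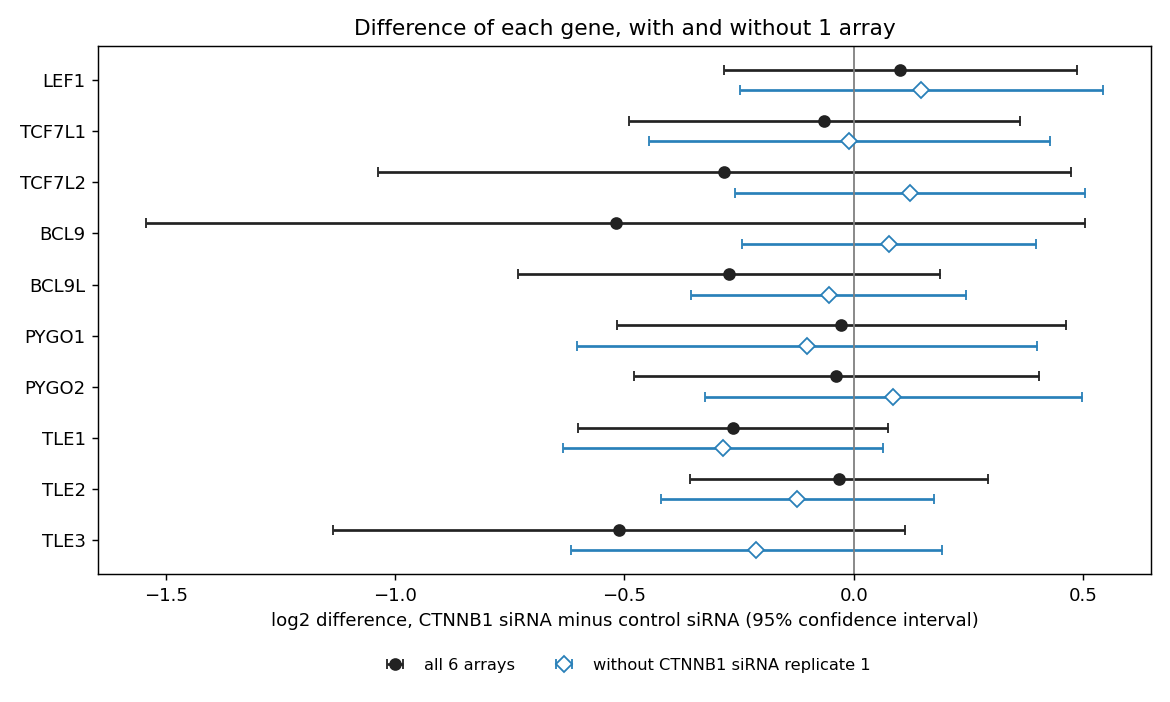
Log2 difference of each gene, CTNNB1 siRNA minus control siRNA, with its 95% confidence interval from limma, over all 6 arrays (filled circles) and without CTNNB1 siRNA replicate 1 (open diamonds). Every interval spans 0; BCL9 and TCF7L2 lie at -0.52 and -0.28 over all arrays and at 0.078 and 0.12 when the array is left out, and TLE1 at -0.26 and -0.28.

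The part of replicate 1 was measured directly as its level minus the mean of CTNNB1 siRNA replicates 2 and 3. This gap was -1.79 for BCL9, -1.21 for TCF7L2, -0.90 for TLE3 and -0.65 for BCL9L. Among 9258 genes whose mean reached the median of all clusters, 0.897% had a gap at least as low as that of BCL9, 4.06% as that of TCF7L2 and 9.11% as that of TLE3. The other 6 genes had gaps between -0.38 (PYGO2) and 0.27 (TLE2). The median gap of the 10 genes was -0.27, beside -0.026 over the 9258 genes. LEF1, PYGO1 and TCF7L1 are among the 10 but are too dim to be among the 9258. Replicate 1 was the lowest of the 6 arrays for 5 of the 10 genes, as it was for 31.3% of all clusters.

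**Figure D3:**
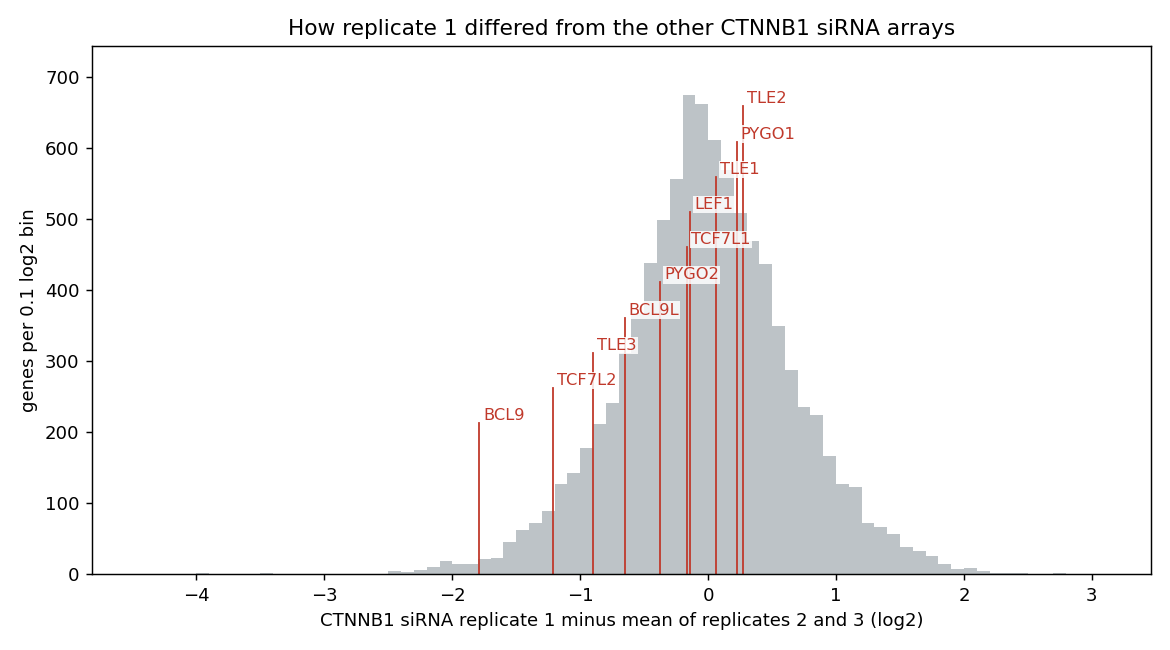
Histogram of the log2 level on CTNNB1 siRNA replicate 1 minus the mean of replicates 2 and 3, over 9258 genes whose mean reached the median of all clusters (bins of 0.1), with the 10 nuclear factor genes as red lines whose heights have no meaning. BCL9 at -1.79 and TCF7L2 at -1.21 lie in the lower tail, and TLE1, LEF1 and TCF7L1 near the centre. LEF1, PYGO1 and TCF7L1 are too dim to be among the 9258 genes.

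With replicate 1 set aside, the 10 differences ran from -0.28 (TLE1) to 0.15 (LEF1), with standard errors of 0.13 to 0.22, against 0.14 to 0.44 over all arrays. CTNNB1 in the same fit differed by -1.13 (SE 0.14, limma adjusted p = 0.052). For BCL9L the 95% confidence interval was then -0.35 to 0.24 and for TLE3 -0.62 to 0.19. In this fit a difference as large as that of CTNNB1 lies outside both intervals, which each hold values of either sign. Over all 6 arrays the BCL9 interval, -1.54 to 0.51, does hold the CTNNB1 difference of -1.27.

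The remaining Groucho-family genes, TLE4, TLE5 and TLE6, did not pass either. TLE6, a divergent member, was 4.79, 4.76 and 5.12 on CTNNB1 siRNA arrays against 4.05, 4.47 and 4.55 on control arrays. It was the 1 gene of these 3 whose groups did not overlap, beside 13.6% of all clusters. Its difference was 0.53 (SE 0.18, limma unadjusted p = 0.0201, adjusted p = 0.816), and 0.58 without replicate 1. TLE6 signal lay above 28.6% of clusters, in the dim range, so the size is uncertain. TLE4 differed by 0.029 (SE 0.20; 0.070 without replicate 1) and TLE5, a short member known to antagonise the others, by 0.13 (SE 0.18), and the TLE5 value was -0.048 without replicate 1.

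Other genes around the TCF/beta-catenin complex, and their target genes, were read as lists, also chosen with earlier results of these data known. Over all clusters 50.8% were lower, and 50.4% without CTNNB1 siRNA replicate 1. Of the 20 measured co-activator genes, 16 were lower and 4 higher, with a median of -0.28, and 0 passed in limma. On CTNNB1 siRNA replicate 1 their median deviation from the control mean was -0.67, whereas replicates 2 and 3 gave -0.11 and -0.099. Without replicate 1, 19 of 20 were lower with a median of -0.10. The 20 genes were read on the same arrays, so these counts are descriptions and were not tested. CREBBP, encoding the acetyltransferase CBP, was 7.82, 8.92 and 9.24 on CTNNB1 siRNA arrays against 9.61, 9.27 and 9.21 on control arrays (difference -0.70, SE 0.34; -0.28 without replicate 1). TBL1X, encoding a co-factor that binds beta-catenin, differed by -0.60 (SE 0.29; -0.29 without replicate 1). TRRAP, a scaffold of histone acetyltransferase complexes, differed by -0.35 (SE 0.17; -0.19 without replicate 1) and was the 1 co-activator gene of 20 whose groups were apart, beside 13.6% of all clusters.

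Of the 9 measured co-repressor genes, 5 were lower and 4 higher, with a median of -0.015, and 0 passed in limma. HBP1, encoding an HMG-box inhibitor of TCF, was 7.97, 7.72 and 7.32 on CTNNB1 siRNA arrays against 5.96, 7.65 and 7.48 on control arrays, with control replicate 1 far below the other 5 arrays. Its difference was 0.64 (SE 0.42), and 0.11 without that control. ZBTB33, encoding the methyl-CpG-binding protein Kaiso, differed by -0.40 (SE 0.22) and by -0.18 without CTNNB1 siRNA replicate 1. HDAC1, a histone deacetylase gene, differed by 0.42 (SE 0.27), and by 0.086 without it.

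Among the 12 inhibitors and modifiers of the complex, 5 were lower and 7 higher, with a median of 0.046 (-0.022 without CTNNB1 siRNA replicate 1), and 0 passed in limma. XIAP, a ubiquitin ligase gene whose protein modifies Groucho/TLE, was 6.58, 6.23 and 6.17 on CTNNB1 siRNA arrays against 5.96, 6.01 and 5.84 on control arrays. Its groups were apart (difference 0.39, SE 0.16, limma unadjusted p = 0.0376, adjusted p = 0.816), and the difference was 0.26 without replicate 1. NLK, a kinase gene whose protein phosphorylates TCF/LEF factors, was 6.87, 8.61 and 8.33 on CTNNB1 siRNA arrays against 8.88, 8.93 and 8.75 on control arrays. Here too the groups were apart, and the difference of -0.92 (SE 0.40) was -0.38 without replicate 1. SOX7, encoding a SOX factor that can bind beta-catenin, differed by 0.51 (SE 0.25; 0.29 without replicate 1), and its groups overlapped. APC, the scaffold of the destruction complex, was chosen after its values were seen as the remaining gene with groups apart, and it differed by -0.27 (SE 0.14). Of the 12 genes, 2 were thus apart in the lower direction and 1 in the higher, beside 13.6% of all clusters in either direction.

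The known target genes of the TCF/LEF proteins came last. Of 14 measured, 11 were lower and 3 higher, while 50.8% of all clusters were lower, and 0 passed in limma. The median was -0.27 over all arrays as well as without CTNNB1 siRNA replicate 1. The list's median deviation from the control mean was -0.24, -0.27 and -0.25 on CTNNB1 siRNA replicates 1 to 3, against 0.012, 0.037 and -0.021 on the controls. For 4 of 14 the groups were apart in the lower direction, AXIN2, ZNRF3, LGR5 and CCND1 (the last chosen after its values were seen), as for 6.8% of all clusters. An unadjusted p under 0.05 in limma came with 3 of 14, all lower, beside 5.64% of all clusters in either direction. ZNRF3, a ubiquitin ligase gene that removes Frizzled receptors, was 7.28, 7.94 and 7.71 on CTNNB1 siRNA arrays against 8.27, 8.22 and 8.17 on control arrays, a difference of -0.58 (SE 0.19, limma unadjusted p = 0.0148, adjusted p = 0.816) that was -0.39 without replicate 1. AXIN2, a feedback inhibitor gene, differed by -0.45 (SE 0.14), and by -0.52 without that array. LGR5 differed by -0.64 (SE 0.22), and by -0.38 without it. SP5, whose promoter window is printed above, was 7.94, 7.53 and 7.81 on CTNNB1 siRNA arrays and 8.08, 8.17 and 7.92 on control arrays. The SP5 groups overlapped by a small margin, through CTNNB1 siRNA replicate 1, with a difference of -0.30 (SE 0.16, limma adjusted p = 0.816). Without that array the SP5 difference was -0.39 (SE 0.15). Both remaining CTNNB1 siRNA arrays then lay below the controls, while 25.7% of all clusters had groups apart in either direction.

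**Figure D4:**
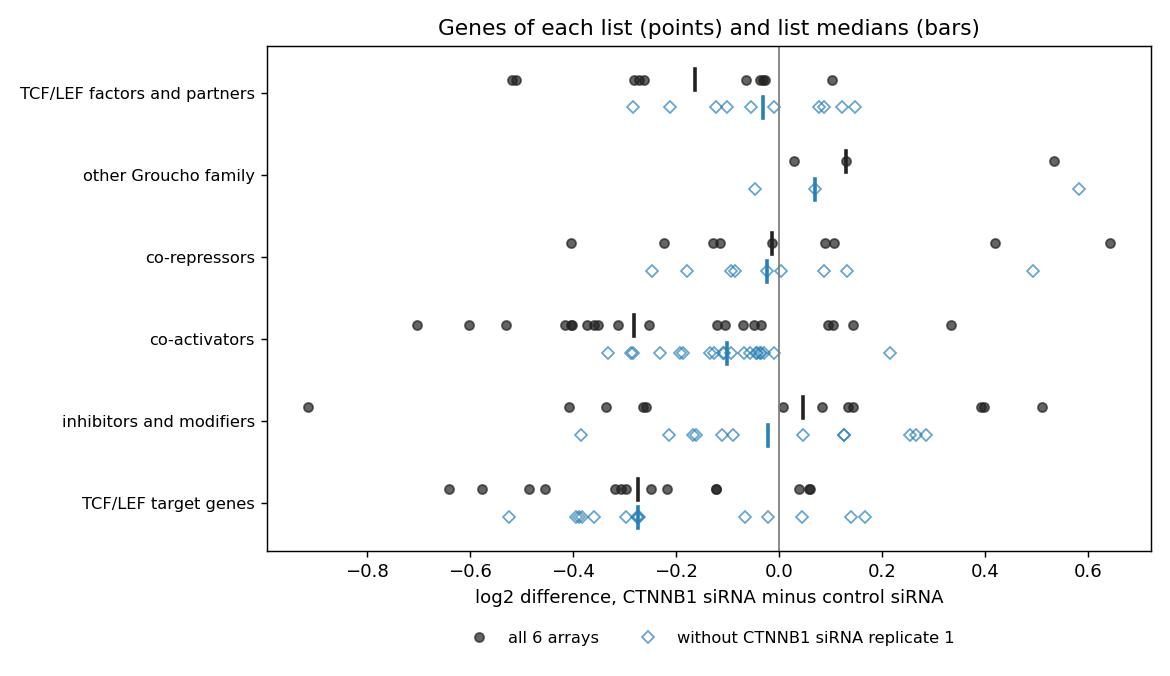
Log2 differences, CTNNB1 siRNA minus control siRNA, of the genes in each list (points) with the list median (bar), over all 6 arrays (filled circles) and without CTNNB1 siRNA replicate 1 (open diamonds). The medians of the nuclear factors and of the co-activators are -0.16 and -0.28 over all arrays and -0.032 and -0.10 without that array, and that of the target genes is -0.27 in both.

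Likeness of profile was described by Pearson's r over the 6 arrays, among genes whose mean reached the median of clusters. TCF7L2 ran closest to CLDN1, a tight junction gene (r = 0.999), NCR3LG1 (0.998) and COX8A (0.998), and r over the 5 arrays without CTNNB1 siRNA replicate 1 was 0.983 to 0.990. TLE3 ran closest to USP6NL (0.996), SOX9 (0.994), a gut progenitor transcription factor gene and itself in the list of inhibitors, and GSE1 (0.990). Without that array r was 0.977, 0.971 and 0.950. LEF1 ran closest to ARFGAP3 (0.997), LMBRD1 (0.978) and WDTC1 (0.973). These genes were picked as the highest r among many, over few arrays that share whatever sets them apart, so the values only describe the profiles.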

How the data were processed

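The authors deposited 1 log2 value per transcript cluster and array. RMA and Affymetrix Expression Console 1.1 are the tools named in the submitters' processing notes, and the range of the values fits a log2 scale. RMA corrects background, normalises the arrays to one another and summarises probes, so a change shared by all genes would not show and differences of dim clusters are compressed. The genome build is not given in the sources used here. Of 33297 clusters, 19460 had 1 gene symbol in the platform annotation and were tested, and 19429 of these took a symbol from RefSeq by gene identifier. Where a gene had several clusters, that with the highest mean was used.

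The labels name the siRNA of each array, with 3 arrays a group. The titles call them biological replicates and name no separate cultures, so a p-value reflects only how these arrays spread, and their number limits the precision. The groups were compared with limma 3.58.1 in R 4.3.3 (lmFit, eBayes), 2-sided, without a block, with Benjamini-Hochberg adjustment over the 19460 clusters and a threshold of 0.05. The fit was also run on simulated arrays with independent noise and no outlying array, unlike these. That run does not show how many changes the fit missed here. The members and lists were chosen with earlier results of these data known. All members were named, and in each wider list the genes that passed or, with none, the 3 of smallest p, plus the 3 genes most like TCF7L2, LEF1 and the member with the smallest p. The alternatives were a replicate block, array weights, a filter on dim clusters, a trended prior, median centring, quantile normalization, the mean over a gene's clusters, and leaving out each array.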

Additional observations from a re-analysis of the deposited data

How the results depend on the processing

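The number of nuclear factor genes past the threshold in limma was 0 under all 13 alternatives. For the 58 measured genes of the wider lists it was 0 as well. Over all tested clusters only 0 to 13 passed under the alternatives, so both counts of 0 are near that share and say little about these genes. Of these 58, 5 had an unadjusted p under 0.05 in the main limma fit, beside 5.64% of all clusters. Under the alternatives 3 to 9 did. The 9 came with a replicate block, beside 5.77% of all clusters, and array weights gave 8, beside 8.81%. Leaving out CTNNB1 siRNA replicate 2 or 3 also gave 8, beside 6.94% and 5.65%. The 3 came without control replicate 2 or 3, beside 4.65% and 3.95%. With array quality weights CTNNB1 differed by -1.12 and passed (adjusted p = 0.0219), and over the fits that leave out 1 array it lay between -1.39 and -1.13 without passing. The replicate numbers do not pair the samples by the labels. Same-numbered arrays had correlations of deviations of 0.092, 0.12 and 0.098, and 6 of 6 arrays correlated best with their own number, a hint from the data only. With a replicate block, 1 gene of the set, TLE3, had an unadjusted p under 0.05 in limma (difference -0.51, adjusted p = 0.743), as had 5.77% of all clusters. In that fit 0 clusters passed and 1123 had an unadjusted p under 0.05.

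Genes of the 10 with groups apart numbered 2 after median centring (BCL9L and TLE1), 0 after quantile normalization, and 1 to 3 when 1 array was left out, beside 13.6%, 13.3% and 22.3% to 25.7% of all clusters, so 2 or 3 of 10 is near that share when an array is left out. The cause was not tested. TLE1 stayed apart after median centring and overlapped after quantile normalization, where its difference was -0.21. The other alternatives keep its values or only drop an array, so they could not make its groups overlap. Over all clusters 13 passed with array weights, 0 of 11676 without the dimmest 40% (670 at an unadjusted p under 0.05), and 0 to 10 when 1 array was left out. The 10 were called without CTNNB1 siRNA replicate 1, and the 0 in each of the other 5 such fits came with 695 to 1350 at an unadjusted p under 0.05.

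Leaving out 1 array turned the sign of TCF7L1 (-0.21 to 0.025), TCF7L2 (-0.53 to 0.12), BCL9 (-0.85 to 0.078), PYGO1 (-0.16 to 0.18), PYGO2 (-0.15 to 0.11) and TLE2 (-0.12 to 0.030). Array weights turned PYGO2 to 0.073. The sign held for LEF1 (0.0056 to 0.22), BCL9L (-0.39 to -0.054), TLE1 (-0.36 to -0.17) and TLE3 (-0.68 to -0.21). The median of the 10 lay between -0.22 and -0.032, the last without CTNNB1 siRNA replicate 1. LEF1, PYGO1 and TCF7L1 fell out with the dimmest 40%, where signal over background limits what can be read, and the median of the remaining 7 was -0.27. Another cluster per gene could not be tried for the 10 genes, which have 1 each.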
